A study of Homo sapiens with 6 samples.

Results

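Guidance cues of the semaphorin, netrin and slit families and their plexin, neuropilin, DCC, neogenin, UNC5 and ROBO receptors were followed after knockdown of CCNL2 in HEY, a human ovarian carcinoma line long kept in culture. The genes were picked by symbol from the deposited count table: semaphorins of classes 3 to 7, netrins and netrin-Gs, slits, and the named receptors, each counted once. This gave 50 of the 60835 distinct names in the table, of which 29 encode ligands and 21 encode receptors. RNA was sequenced from 3 libraries of HEY cells with an siRNA against CCNL2 (siCCNL2) and 3 with a control siRNA (siNC). No other treatment, allele or cell line was labelled. The labels give 48 h with the CCNL2 siRNA for all 6 libraries alike, so an equal time for the siNC cells is assumed. Whether the 3 libraries of one siRNA are separate cultures is not stated, so the p-values cover a spread between libraries that could be technical only.

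Semaphorins are secreted, transmembrane or lipid-anchored proteins that signal through plexins, with neuropilins as co-receptors for most secreted members. Netrins signal through DCC, neogenin (NEO1) and UNC5 receptors, and slits through ROBO receptors. All of these systems steer growing axons by way of small GTPases and the actin cytoskeleton. Outside the nervous system they are known for roles in vessel growth, epithelial organisation and cell migration, and several are known as tumour suppressors or promoters.

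Total counts ran from 13596286 to 18095529 per library. The target CCNL2, a cyclin of the CDK11 kinases, stood at 203, 182 and 186 CPM (reads relative to library size, scaled for library composition) in the siCCNL2 libraries, against 261, 267 and 246 CPM in the siNC libraries. The groups did not overlap, and the log2 fold change of siCCNL2 over siNC was -0.44 (SE 0.0439, edgeR adjusted p = 2.15e-08). An exact two-sided permutation test gave p = 0.1, the smallest that 3 against 3 libraries allow. The ovarian carcinoma lineage factor PAX8 was present, at a level of 85.5 in siCCNL2 and 97.2 in siNC on the authors' TPM-like score per gene length. PAX8 was lower in siCCNL2 (log2 fold change -0.17, edgeR adjusted p = 0.00311). WT1, of the same lineage, was lower too, at 6.05 in siCCNL2 and 8.34 in siNC (edgeR adjusted p = 0.0135). MSLN (1.97 in siCCNL2, 2.40 in siNC) and SOX17 (9.63 in siCCNL2, 7.55 in siNC) did not reach an adjusted p under 0.05. Keratins 7, 8 and 18 and vimentin were each at a score above 300 in both groups, whereas CDH1, which encodes E-cadherin, and MUC16 were close to 0.

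Among the guidance genes, cues and receptors had different balances. Of 29 ligand genes, 23 had enough reads to be tested, and 7 rose, 6 fell and 10 were not called at an adjusted p under 0.05. Of 21 receptor genes, 17 were tested, and 1 rose, 9 fell and 7 were not called. Over all 15346 tested genes, 33.6% were called, 17.2% as higher and 16.5% as lower. Of the 40 tested guidance genes 23 were called, or 57.5%. The groups did not overlap in some of them, 9 with all siCCNL2 libraries above and 16 with all below, where the share over all tested genes was 43.9% (22.1% above and 21.8% below). The median log2 fold change was -0.03 for the ligands and -0.20 for the receptors, beside 0.00 (0.0023) for all tested genes. The difference between ligands and receptors was not itself tested. The filter passes a gene that is well counted in 1 group alone, as for NTNG2 and UNC5A, so counts over the tested members describe them and support nothing by themselves.

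**Figure D1:**
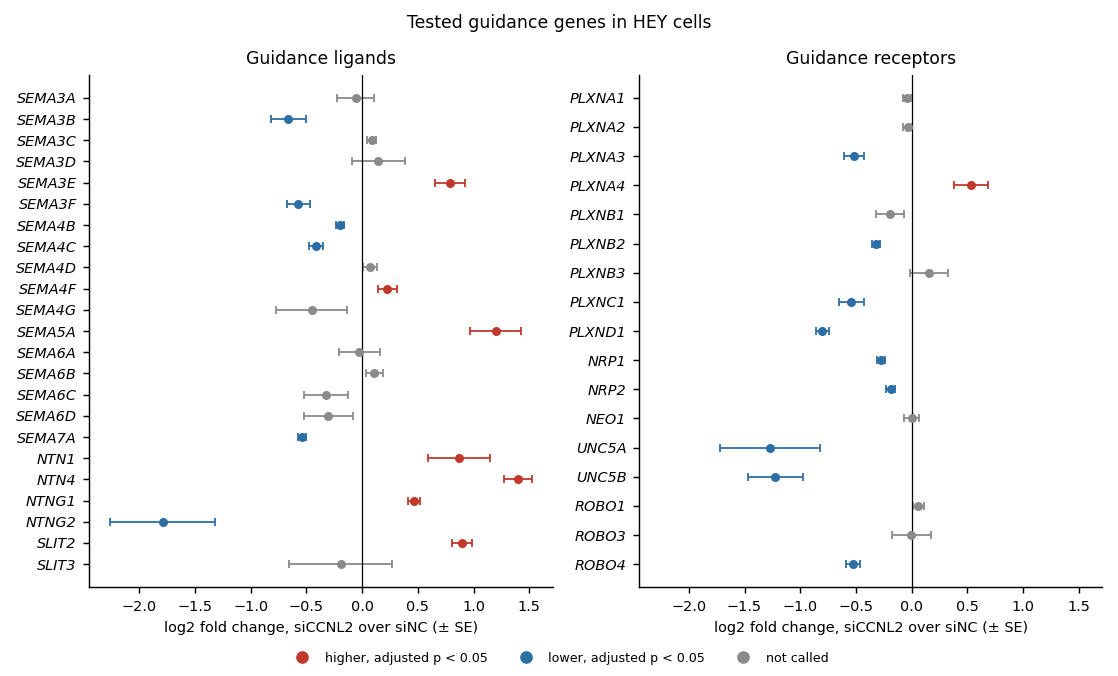
Log2 fold change of siCCNL2 over siNC with its standard error for the 23 tested ligand genes (left) and the 17 tested receptor genes (right), coloured by the call at an adjusted p under 0.05. NTN4 is the highest point at 1.40 and NTNG2 the lowest at -1.79, and among receptors PLXNA4 is the only red point.

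Of the secreted netrins and slits, NTN4, SLIT2 and NTN1 rose. NTN4, which encodes netrin-4, a basement membrane protein known to bind laminin gamma chains, lies on the minus strand of chromosome 12 (95657807 to 95791189, GRCh38). It stood at 13.5, 15.7 and 17.0 CPM in siCCNL2, against 5.91, 5.50 and 6.09 CPM in siNC. Every siCCNL2 library lay above every siNC library. The log2 fold change was 1.40 (SE 0.124, edgeR adjusted p = 3.28e-09) and an exact two-sided permutation test gave p = 0.1. SLIT2, the repulsive ligand of ROBO1 and ROBO2 (chromosome 4, 20251905 to 20620561, plus strand), had 25.3, 25.1 and 25.9 CPM in siCCNL2 and 14.4, 12.1 and 14.4 CPM in siNC. The siCCNL2 libraries were tightly grouped and clear of the siNC libraries (log2 fold change 0.89, SE 0.0897, edgeR adjusted p = 2.40e-08).

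NTN1 encodes netrin-1, the founding ligand of DCC and UNC5 receptors. It was far lower, at 2.91, 2.01 and 2.35 CPM in siCCNL2 and 1.18, 1.26 and 1.57 CPM in siNC. Its log2 fold change was 0.87 (SE 0.281, edgeR adjusted p = 0.0189). The call was lost without siCCNL2 replicate 1 (adjusted p = 0.107), siNC replicate 1 (0.0651) or siNC replicate 2 (0.055). SLIT3 stood at 0.694 ± 0.243 CPM in siCCNL2 and 0.772 ± 0.436 CPM in siNC (SD, n = 3 each) and was not called. NTN3, NTN5 and SLIT1 had at most 10 reads in a library and were not tested.

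The lipid-anchored netrin-Gs, which bind the synaptic adhesion proteins LRRC4C and LRRC4 and not DCC, went opposite ways. NTNG1 rose, with 69.2, 62.6 and 66.8 CPM in siCCNL2 and 47.8, 47.6 and 48.5 CPM in siNC (log2 fold change 0.47, SE 0.0556, edgeR adjusted p = 3.68e-07). NTNG2 fell, at 0.439, 0.671 and 0.0636 CPM in siCCNL2 against 1.18, 1.39 and 1.44 CPM in siNC (log2 fold change -1.79, SE 0.471, edgeR adjusted p = 0.00456). This second value rests on few reads: 8, 9 and 1 in the siCCNL2 libraries and 20, 22 and 23 in the siNC libraries. Neither binding partner had enough reads to be tested, and LRRC4C had at most 0.0636 CPM in any library.

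**Figure D2:**
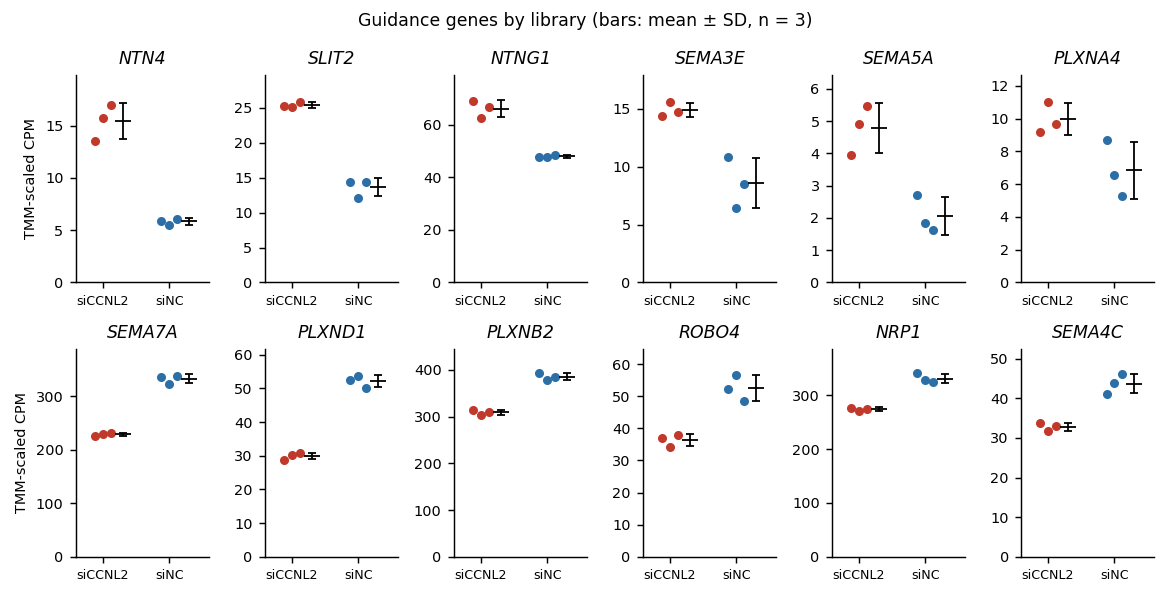
TMM-scaled CPM in each library for the 6 risen (top) and 6 fallen (bottom) guidance genes with the smallest p-values, siCCNL2 left of siNC, with mean ± SD (n = 3). In all 12 panels the groups do not overlap, the narrowest gap being that of PLXNA4, where the lowest siCCNL2 library is at 9.16 and the highest siNC library at 8.68 CPM. The panels were picked by p-value, so this separation largely follows from the choice. Over all tested genes the groups did not overlap in 43.9%.

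Of the 17 tested semaphorins, 3 rose, 5 fell and 9 were not called. The called share was 47.1%, beside 33.6% of all tested genes (17.2% higher and 16.5% lower). SEMA7A, a lipid-anchored semaphorin that acts through plexin C1 and beta1 integrins, had the highest mean level per length and the smallest p of the guidance genes (chromosome 15, 74409289 to 74433958, minus strand). It stood at 226, 229 and 232 CPM in siCCNL2, against 336, 323 and 338 CPM in siNC. The gap between the groups was many times the spread within them (log2 fold change -0.54, SE 0.0362, edgeR adjusted p = 2.69e-11).

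Secreted class 3 semaphorins split by gene. SEMA3E, which binds plexin D1 directly without a neuropilin, had 14.4, 15.6 and 14.8 CPM in siCCNL2 and 10.8, 6.44 and 8.53 CPM in siNC. The siNC libraries were widely spread but all lower (log2 fold change 0.79, SE 0.135, edgeR adjusted p = 6.09e-05). SEMA3F and SEMA3B, neighbours on chromosome 3 separated by 78483 bases and known as candidate tumour suppressors, both fell. SEMA3F had 10.2, 10.2 and 11.01 CPM in siCCNL2 and 16.1, 15.98 and 14.6 CPM in siNC (log2 fold change -0.57, SE 0.103, edgeR adjusted p = 1.11e-04). SEMA3B had 4.50, 4.18 and 4.96 CPM in siCCNL2 and 7.44, 6.63 and 7.53 CPM in siNC (log2 fold change -0.66, SE 0.153, edgeR adjusted p = 0.0015). SEMA3F shares 110 exonic bases with its antisense gene SEMA3F-AS1, which averaged 7.33 reads in siCCNL2 and 16 in siNC. SEMA3F itself averaged 165 reads in siCCNL2 and 253 in siNC. Reads within the shared bases cannot be told apart because strand use in counting is not given in the sources used here.

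SEMA3C, a neuropilin ligand and the most abundant class 3 member, was not called although its groups did not overlap: 124, 130 and 127 CPM in siCCNL2 against 119, 123 and 116 CPM in siNC (log2 fold change 0.09, SE 0.0433, edgeR adjusted p = 0.137). SEMA3A and SEMA3D overlapped between the groups, at 5.21 ± 0.711 and 3.14 ± 0.865 CPM in siCCNL2 and 5.43 ± 0.429 and 2.80 ± 0.206 CPM in siNC (SD, n = 3 each). These 4 genes, SEMA3A, SEMA3C, SEMA3D and SEMA3E, lie on chromosome 7, SEMA3E and SEMA3A being 306638 bases apart, and of them SEMA3E alone was called.

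Of 5 tested class 4 semaphorins, which are transmembrane, 2 fell and 1 rose, where 16.5% of all tested genes fell and 17.2% rose. SEMA4B had 252, 252 and 251 CPM in siCCNL2 and 281, 288 and 294 CPM in siNC, a small but well separated difference (log2 fold change -0.19, SE 0.0358, edgeR adjusted p = 1.43e-04). SEMA4C, a ligand of plexin B2, had 33.7, 31.8 and 32.9 CPM in siCCNL2 and 41.2, 43.8 and 46.1 CPM in siNC (log2 fold change -0.41, SE 0.0644, edgeR adjusted p = 1.88e-05). SEMA4D, the plexin B1 ligand, overlapped between the groups at 48.2 ± 4.37 CPM in siCCNL2 and 46.0 ± 1.61 CPM in siNC and was not called. SEMA4F, with 24.1, 21.0 and 23.3 CPM in siCCNL2 and 19.8, 18.1 and 20.8 CPM in siNC, was called higher at the edge of the threshold (log2 fold change 0.23, SE 0.0867, edgeR adjusted p = 0.0469). SEMA4G, which shares 1170 exonic bases with MRPL43 on the opposite strand, had a log2 fold change of -0.45 and was not called. The SEMA4F call was lost under 11 of 17 alternatives, with adjusted p up to 0.198.

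SEMA5A, a transmembrane semaphorin with thrombospondin repeats, had the steepest rise of its family. It stood at 3.95, 4.92 and 5.47 CPM in siCCNL2, against 2.72, 1.83 and 1.63 CPM in siNC (log2 fold change 1.20, SE 0.227, edgeR adjusted p = 1.92e-04). Class 6 semaphorins, transmembrane ligands of A-type plexins, were not called, with log2 fold changes from -0.32 (SEMA6C) to 0.11 (SEMA6B). SEMA6A and SEMA6D overlapped between the groups. SEMA3G, SEMA4A and SEMA5B had at most 15 reads in a library and were not tested. SEMA6B, the only class 6 member above 20 CPM, stood at 34.4 ± 1.32 CPM in siCCNL2 and 31.8 ± 3.08 CPM in siNC (SD, n = 3 each).

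Plexins and neuropilins, the semaphorin receptors, fell in 6 of 11 cases and rose in 1, where 16.5% of all tested genes fell and 17.2% rose. PLXND1, which encodes plexin D1, a semaphorin receptor best known from developing vessels (chromosome 3, 129555214 to 129606676, minus strand), fell most among the plexins. It had 28.9, 30.2 and 30.7 CPM in siCCNL2, against 52.5, 53.6 and 50.1 CPM in siNC (log2 fold change -0.80, SE 0.0617, edgeR adjusted p = 2.77e-10). PLXNC1, the receptor of SEMA7A, had 12.7, 15.96 and 13.1 CPM in siCCNL2 and 23.8, 19.4 and 17.0 CPM in siNC. The siNC libraries varied, but the groups stayed apart (log2 fold change -0.54, SE 0.116, edgeR adjusted p = 6.99e-04). PLXNC1 shares 177 exonic bases with CEP83 on the opposite strand, a gene that was not called (log2 fold change 0.19).

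PLXNB2, the plexin with the highest level per length, fell, with 313, 304 and 310 CPM in siCCNL2 and 393, 378 and 385 CPM in siNC (log2 fold change -0.32, SE 0.0347, edgeR adjusted p = 9.45e-08). PLXNB1 and PLXNB3 stood at scores of only 4.05 and 4.26 in siCCNL2 and of 4.71 and 3.90 in siNC, overlapped between the groups and were not called. The A-type plexins, which pair with neuropilins, moved apart. PLXNA3 fell to 16.3, 16.9 and 17.1 CPM in siCCNL2, against 25.9, 22.6 and 23.3 CPM in siNC (log2 fold change -0.52, SE 0.0858, edgeR adjusted p = 3.95e-05). PLXNA4 rose, with 9.16, 11.04 and 9.67 CPM in siCCNL2 and 8.68, 6.57 and 5.27 CPM in siNC (log2 fold change 0.53, SE 0.152, edgeR adjusted p = 0.00876), and without siNC replicate 3 it was not called (adjusted p = 0.0679). The abundant PLXNA1 and PLXNA2 overlapped between the groups, at 316 ± 11.1 and 257 ± 5.22 CPM in siCCNL2 and 326 ± 3.64 and 263 ± 8.07 CPM in siNC (SD, n = 3 each). Their log2 fold changes were -0.04 (SE 0.0362) and -0.04 (SE 0.0373).

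Both neuropilins, which also bind vascular endothelial growth factors, fell by a small margin. NRP1 had 277, 271 and 274 CPM in siCCNL2 and 341, 328 and 324 CPM in siNC (log2 fold change -0.27, SE 0.0358, edgeR adjusted p = 1.66e-06). NRP2 had 219, 229 and 235 CPM in siCCNL2 and 253, 254 and 271 CPM in siNC (log2 fold change -0.19, SE 0.0402, edgeR adjusted p = 6.12e-04). In neither gene did the groups overlap.

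Of the netrin receptors, neogenin held most of the summed level, 94.3% in siCCNL2 and 88.3% in siNC. DCC, the classical attractive netrin receptor, had at most 1 read in a library and UNC5D none, and UNC5C had at most 15, so these 3 were not tested. NEO1, which also binds repulsive guidance molecules, stood at 42.2, 46.7 and 44.7 CPM in siCCNL2 and 47.2, 40.2 and 45.9 CPM in siNC. Its groups overlapped and its log2 fold change was -0.0017 (SE 0.0664, edgeR adjusted p = 0.988). UNC5B, a repulsive receptor that is also known to trigger cell death when netrin is absent, had 1.37, 1.34 and 1.46 CPM in siCCNL2 against 3.07, 3.66 and 3.07 CPM in siNC (log2 fold change -1.23, SE 0.247, edgeR adjusted p = 3.74e-04). UNC5A had 10, 2 and 9 reads in the siCCNL2 libraries and 15, 16 and 21 in the siNC libraries (log2 fold change -1.27, SE 0.448, edgeR adjusted p = 0.0313). With so few reads the UNC5A call was lost without siCCNL2 replicate 2 (adjusted p = 0.153), siCCNL2 replicate 3 (0.051), siNC replicate 2 (0.0707) or siNC replicate 3 (0.129).

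Of the ROBO family, ROBO4, known mainly from endothelium, fell, with 37.0, 34.3 and 37.8 CPM in siCCNL2 and 52.1, 56.7 and 48.6 CPM in siNC (log2 fold change -0.53, SE 0.0656, edgeR adjusted p = 7.81e-07). ROBO1, a receptor of SLIT2, had 103, 97.2 and 103 CPM in siCCNL2 and 99.6, 93.5 and 97.9 CPM in siNC and was not called (log2 fold change 0.06, SE 0.047, edgeR adjusted p = 0.352). ROBO3, only 2220 bases from ROBO4 on chromosome 11, overlapped between the groups at 4.96 ± 0.461 CPM in siCCNL2 and 4.99 ± 0.993 CPM in siNC (SD, n = 3 each). ROBO2 had at most 2 reads in a library. Another endothelial gene, CDH5, which encodes VE-cadherin, was lower too, at a TPM-like score of 35.0 in siCCNL2 and 85.3 in siNC. The 4 endothelial markers looked at summed to scores of 33.2 to 40.2 in siCCNL2 and 85.4 to 89.5 in siNC, almost all of it CDH5. VWF, PECAM1 and TEK stood at 0.323, 0.408 and 0.103 in siCCNL2 and at 0.309, 1.08 and 0.474 in siNC. Neuronal markers, 5 in all, summed to scores of 4.55 to 5.10 in siCCNL2 and 8.04 to 8.89 in siNC. RBFOX3 was called lower (log2 fold change -1.81) and held most of that gap, at 1.43 in siCCNL2 and 5.02 in siNC. SYT1 was not called, and SNAP25, STMN2 and ELAVL3 had too few reads to be tested. The mean scores of SNAP25 (0.299 against 0.106) and STMN2 (0.0988 against 0.0342) were higher in siCCNL2 than in siNC. Epithelial markers, 6 in all, summed to 2169 to 2265 in siCCNL2 and 2923 to 2977 in siNC, nearly all of it KRT7, KRT8 and KRT18. EPCAM, another of them, stood at 5.38 in siCCNL2 and 3.65 in siNC and was not called. The sums of the 4 mesenchymal markers overlapped between the groups, at 2182 to 2275 in siCCNL2 and 2169 to 2226 in siNC. Most of each sum was VIM, at a mean of 1711 in siCCNL2 and 1702 in siNC, which was not called. CDH2, another of them, was called higher (log2 fold change 0.21, edgeR adjusted p = 3.53e-04). The part of these markers in the guidance gene values, among them the ROBO4, PLXND1 and UNC5B values, was not tested, and in bulk RNA fewer cells of a type cannot be told apart from less RNA per cell.

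Per gene length the cues were dominated by a few semaphorins. On the TPM-like score, SEMA7A and SEMA4B averaged 207 and 203 in siCCNL2 and 303 and 234 in siNC. Within each library SEMA7A was the higher of them, by a narrow margin in siCCNL2 (208.8 against 207.8, 202.3 against 198.5 and 210.4 against 203.7) and by a wide one in siNC. SEMA3C followed at 79.5 in siCCNL2 and 75.4 in siNC, and every other ligand was under 40 in both groups. NTN4 and SLIT2 had scores of 12.99 and 9.64 in siCCNL2 and of 4.95 and 5.22 in siNC. Among receptors, PLXNB2 and NRP1 led with scores of 147 and 142 in siCCNL2 and of 185 and 173 in siNC. NRP2 and PLXNA1 came next, at 104 each in siCCNL2 and at 120 and 108 in siNC. ROBO1 and ROBO4 were apart in siCCNL2 at 41.2 and 25.9 and overlapped in siNC at 39.8 and 37.6. PLXND1 lay below NEO1 in siCCNL2, at 13.2 against 18.5, and above it in siNC, at 23.2 against 18.6.

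**Figure D3:**
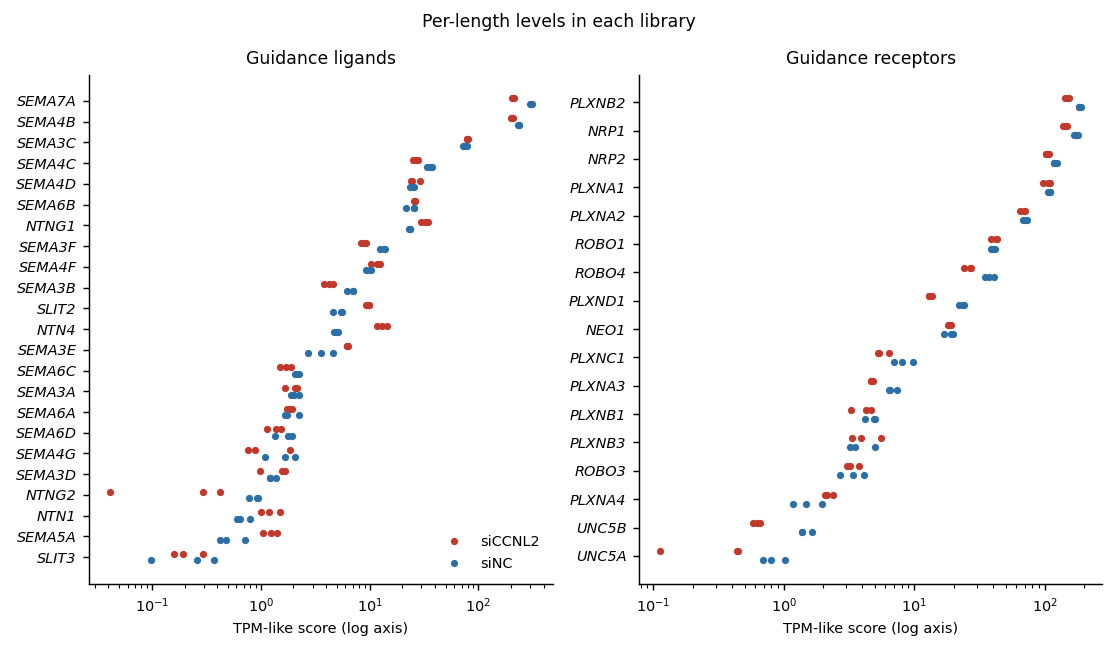
TPM-like score of each tested ligand (left) and receptor gene (right) in every library on a log axis, siCCNL2 above siNC, ordered by the siNC mean. The lowest library value is 0.0417 for NTNG2 in siCCNL2, the highest mean is 303 for SEMA7A in siNC, and PLXND1 lies below NEO1 in siCCNL2 and above it in siNC.

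Summed over all members, the ligands held a score of 668 ± 15.7 in siCCNL2 and 779 ± 4.32 in siNC, and the receptors 690 ± 25.2 in siCCNL2 and 806 ± 15.1 in siNC (SD, n = 3 each). The ligand sum was 14.3% lower and the receptor sum 14.4% lower in siCCNL2, although the counts of calls differed. SEMA7A alone made up 86.3% of the net difference of the ligands, which was -111.0 score units, and SEMA4B made up 27.9%. The ligands with higher scores in siCCNL2 together added 33.9 score units. In the receptors, PLXNB2 made up 32.4%, NRP1 26.5% and NRP2 13.3% of the difference. The ratio of summed ligand to summed receptor score was 0.957, 0.982 and 0.965 in siCCNL2 and 0.947, 0.961 and 0.991 in siNC, with overlap between the groups.

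**Figure D4:**
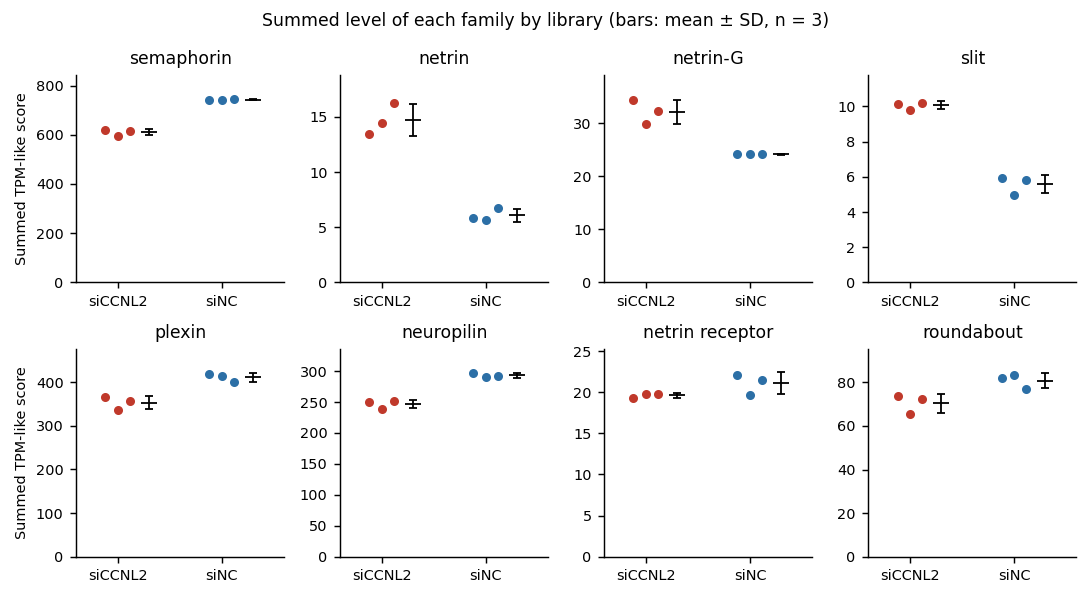
Summed TPM-like score of each family in every library, siCCNL2 left of siNC, with mean ± SD (n = 3) and axes from 0. Netrins, netrin-Gs and slits, whose sums in siCCNL2 are 88.2% NTN4, 99.2% NTNG1 and 95.8% SLIT2, are higher in all 3 siCCNL2 libraries, semaphorins, plexins, neuropilins and roundabouts are lower, and netrin receptors overlap.

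The 8 risen members had a median of 11.2 CPM over the 6 libraries and the 15 fallen members 38.2 CPM. Over all tested genes the medians were 47.6 CPM for the 2634 risen and 43.2 CPM for the 2525 fallen. Gene span differed in the same way. Of 20 tested members spanning at least 100 kb of genome, 7 rose and 3 fell, and of 20 shorter members 1 rose and 12 fell. Over all genes with coordinates, 630 rose and 498 fell among 2793 tested long genes, and 1988 rose and 2013 fell among 12184 shorter ones. These splits were not tested, and level and span of the members move together with their calls.

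Promoter sequence was looked at for the members that moved, using RefSeq promoters on GRCh38.p14 of 300 bases, 250 before and 50 after the start. Of the 50 members, 41 had an entry, and the first listed start was used. The 2 risen and 2 fallen genes with the smallest p-values and an entry are shown, 5′ to 3′ on the strand of the gene, to let their base composition be compared. Capitals mark GC boxes, meaning GGGCGG on either strand, some of which overlap. The windows are chr12:95791106-95791405 (minus strand) for NTN4, chr4:20251655-20251954 (plus strand) for SLIT2, chr15:74433909-74434208 (minus strand) for SEMA7A and chr3:129606627-129606926 (minus strand) for PLXND1.
NTN4: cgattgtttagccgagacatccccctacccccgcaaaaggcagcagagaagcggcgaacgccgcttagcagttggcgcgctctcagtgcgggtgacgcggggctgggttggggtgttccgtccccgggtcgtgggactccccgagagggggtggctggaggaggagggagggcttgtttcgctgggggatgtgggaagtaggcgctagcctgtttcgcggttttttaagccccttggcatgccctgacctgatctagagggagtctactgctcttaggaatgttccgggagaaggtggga
SLIT2: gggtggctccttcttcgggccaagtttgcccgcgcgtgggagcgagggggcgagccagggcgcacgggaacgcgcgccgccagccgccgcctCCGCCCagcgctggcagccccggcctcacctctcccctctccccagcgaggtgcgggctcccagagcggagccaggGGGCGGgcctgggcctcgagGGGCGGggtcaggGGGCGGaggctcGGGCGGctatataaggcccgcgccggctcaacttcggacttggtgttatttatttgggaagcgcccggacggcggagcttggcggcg
SEMA7A: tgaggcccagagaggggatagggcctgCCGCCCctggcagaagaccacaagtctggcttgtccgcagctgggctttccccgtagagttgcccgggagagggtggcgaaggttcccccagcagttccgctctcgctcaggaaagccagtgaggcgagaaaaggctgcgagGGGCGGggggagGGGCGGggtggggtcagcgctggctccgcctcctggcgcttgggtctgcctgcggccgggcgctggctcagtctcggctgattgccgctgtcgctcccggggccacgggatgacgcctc
PLXND1: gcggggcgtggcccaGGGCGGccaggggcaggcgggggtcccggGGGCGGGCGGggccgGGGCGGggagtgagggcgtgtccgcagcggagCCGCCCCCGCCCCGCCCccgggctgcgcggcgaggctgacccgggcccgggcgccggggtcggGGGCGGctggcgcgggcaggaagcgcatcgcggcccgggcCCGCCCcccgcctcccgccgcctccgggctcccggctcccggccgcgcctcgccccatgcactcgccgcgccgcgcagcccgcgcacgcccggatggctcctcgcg
The NTN4 window held no GC box and 62.3% G and C, and that of SLIT2 held 5 GC boxes and 74.3% G and C. In the fallen genes, SEMA7A had 3 boxes and 70.0% G and C, and PLXND1 had 9 boxes and 87.3% G and C. A GC box was found in 3 of 7 promoters of risen members and in 11 of 12 of fallen members. Among genes of the whole table it was found in 72.0% of promoters of risen and 72.2% of fallen genes, and in 69.3% of promoters of all tested genes and 44.6% of all promoters listed. When every listed start was used, the counts were 5 of 7 for risen and 12 of 12 for fallen members. The promoters of 8176 of 10751 tested genes held one by that count. The median G and C content was 63.0% for risen and 74.0% for fallen members, beside 66.0% for all risen, 66.7% for all fallen and 65.3% for all tested genes. The CCAAT box (CCAAT, either strand) was found in 1 of 7 promoters of risen and 1 of 12 of fallen members, against 36.4% of promoters of tested genes. It was found in 6 of 14 promoters of members not called. With every listed start the counts were 1 of 7 for risen and 3 of 12 for fallen members, and 4610 of 10751 for tested genes. These differences were not tested. A match of letters describes a window and shows no binding.

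Cues and their known receptors moved together in some pairs and apart in others. Of 16 pairs taken from general knowledge, both partners were called in 6. The list is a selection of known pairs and holds none for NTN4. Taken singly, 57.5% of the tested guidance genes and 33.6% of all tested genes were called. Some genes, such as NRP2, stand in several pairs, so the pairs are not independent, and their number was not tested. SEMA7A and PLXNC1 fell by nearly the same amount, at log2 fold changes of -0.54 and -0.54, and SEMA4C and PLXNB2 also fell together (-0.41 and -0.32). SEMA3F and SEMA3B fell with NRP2 (-0.57, -0.66 and -0.19). In contrast, SEMA3E rose while its receptor gene PLXND1 fell (0.79 and -0.80), and NTN1 rose while UNC5B fell (0.87 and -1.23). The NTN1 call was lost under 6 of 17 alternatives. SLIT2 and SEMA5A rose with receptor genes that were not called, ROBO1 at 0.06 and PLXNB3 at 0.15.

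Partners of the guidance system outside its ligand and receptor families were counted in the same way. Of 23 tested co-receptors and other ligands, 6 rose and 8 fell, or 60.9% called beside 33.6% of all tested genes (median log2 fold change -0.09, beside 0.0023). Among those that rose were SDC1, a heparan sulfate proteoglycan (log2 fold change 0.61, edgeR adjusted p = 7.62e-11), FLRT2, an adhesion protein that binds UNC5 receptors (0.72), and DAG1, which encodes the slit-binding dystroglycan (0.42). SDC1 averaged 169 ± 5.69 CPM in siCCNL2 and 111 ± 3.86 CPM in siNC (SD, n = 3 each). Those that fell included the laminin chains LAMC1 (-0.37) and LAMB1 (-0.32), the first of them a binding partner of netrin-4, and MCAM, an adhesion receptor (-0.44). Of 32 tested GTPases and their regulators, 9 rose and 8 fell, or 53.1% called (median 0.02). Their changes were no larger than elsewhere, with a median absolute log2 fold change of 0.193 beside 0.193 for all tested genes. RAC1, a GTPase that drives membrane protrusion, rose by 0.51 on the log2 scale (edgeR adjusted p = 3.43e-10). RAC1 averaged 360 ± 8.07 CPM in siCCNL2 and 252 ± 13.7 CPM in siNC (SD, n = 3 each). RND3, an antagonist of RhoA (0.52), and DOCK1, an activator of RAC1 (0.48), rose too. Log2 fold changes of -0.28 for RAP1B, a substrate of the plexin GTPase-activating domain, -0.27 for TRIO, an exchange factor in netrin signalling, and -0.26 for RAC2 were found among those that fell.

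Of 42 tested cytoplasmic effectors, 11 rose and 3 fell (median 0.08), or 33.3% called, close to the 33.6% of all tested genes. Of these 42, 30 had a positive and 12 a negative log2 fold change, called or not, beside 7716 and 7630 of all tested genes. Their changes were small, with a median absolute log2 fold change of 0.125 beside 0.193 for all tested genes. Neither this comparison nor the called shares of the partner lists took expression level into account. Over all tested genes, those not called had a median of 9.30 CPM, beside 47.6 CPM for risen and 43.2 CPM for fallen genes. The split of signs was not tested. The kinases ABL1 (0.32) and ABL2 (0.28), which act below ROBO receptors, and MICAL2, an actin-oxidising enzyme (0.20), rose. CAP1, which recycles actin monomers (-0.25), CDK5, a kinase of the semaphorin pathway (-0.56), and DAPK1, a death kinase linked to UNC5 receptors (-0.19), fell. Ephrins and Eph receptors, a separate guidance family, had 11 tested genes of which 3 rose and 2 fell, or 45.5% called (median -0.07). EPHB1 rose by 1.16 on the log2 scale (edgeR adjusted p = 8.28e-11) and averaged 31.1 ± 1.98 CPM in siCCNL2 and 13.9 ± 0.335 CPM in siNC (SD, n = 3 each). EFNB2 (0.52) and EPHB4 (0.24) also rose, while EFNB1 (-0.63) and EPHB2 (-0.15) fell. The axon guidance pathway as annotated in the deposited table held 45 of the 50 members. Of the 102 other tested genes of that pathway, 27 rose and 16 fell, or 42.2%. Of its 36 tested members 8 rose and 11 fell, or 52.8%, and over all tested genes the share was 33.6%.

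**Figure D5:**
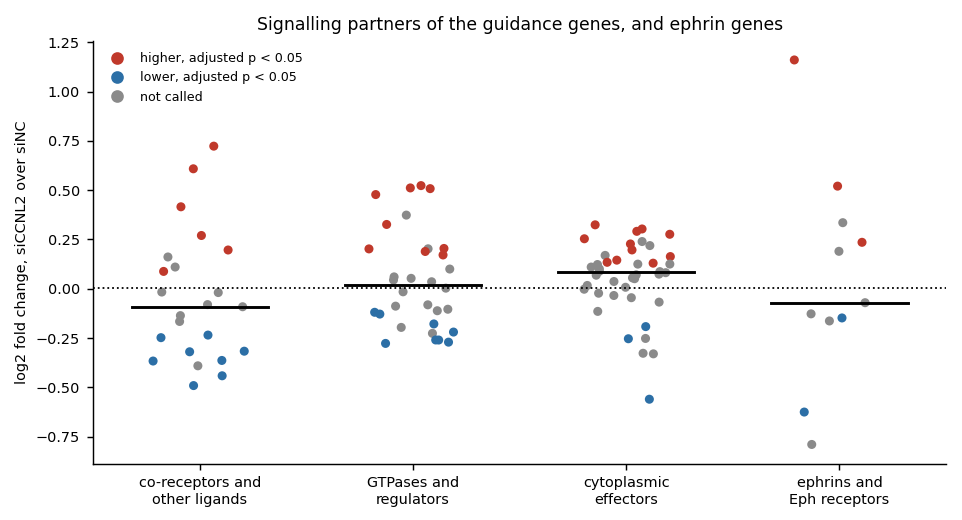
Log2 fold change of siCCNL2 over siNC for each tested gene of 4 lists of partner and ephrin genes, coloured by the call, with the list median as a solid line and the median of all tested genes as a dotted line at 0.0023. Each list holds genes on both sides of 0, and its median lies between -0.09 and 0.08.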

How the data were processed

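The authors deposited a table of read counts per gene, not normalized, and a table of a TPM-like score made from gene length and library size. Per the submitters' processing notes, fastp 0.23.0, HISAT2, HTSeq 2.0.1 and GRCh38 were used, with no role or order given. The annotation release and strand setting were not given in the labels or headers. Columns of the score as deposited sum to between 1348377 and 1491986 over all rows and to 1000000 over distinct names, and each name was used once.

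Members and lists were chosen with earlier results of these data known. Libraries were grouped by title. Of 60835 names, filterByExpr kept 15346, with over 99% of counts in each library (lowest 99.76%). Tests used edgeR 4.0.16 in R 4.3.3 (TMM factors, quasi-likelihood F test, no covariates), Benjamini-Hochberg adjustment over all tested genes, and a threshold of 0.05. Standard errors are the log2 fold change over the square root of F. The test was tested on simulated data. Log2 CPM correlated across genes with r from 0.991 to 0.992 within a group and from 0.983 to 0.986 between the groups. Exon overlaps used GENCODE annotation on GRCh38.

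Described in full were members called with at least 1 CPM in the higher group or averaging at least 20 CPM, and, per partner list, up to 3 called genes per direction with the smallest p. SLIT3, SEMA3A, SEMA3D, SEMA4G, SEMA6C, PLXNB1, PLXNB3 and ROBO3 lie outside this rule and were added after their values were seen. The 17 alternatives comprised DESeq2 1.42.0 size factors and its Wald test, upper-quartile and no composition factors, 2 other count filters, limma 3.58.1 (voom, and log2 of the score plus 1 or 0.1), a threshold of 0.01, a block for replicate number, and omission of each library in turn. Standard errors and p-values cover these libraries only. At these depths 1 CPM is fewer than 20 reads in a library.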

Additional observations from a re-analysis of the deposited data

How the results depend on the processing

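CCNL2 and the 30 members described in full were followed singly through the alternatives. Partner genes, marker genes and the members added later were not. Of the 31 genes followed, 25 kept their direction and their side of the threshold under all alternatives that gave a value. Over 524 such comparisons of single genes, 494 did so, 26 lost a call (SEMA4F, NTN1, PLXNA4 and UNC5A) and 4 changed the sign of a value that was not called. Those 4 were SEMA4D without siCCNL2 replicate 1 (-0.0053) and NEO1 without siCCNL2 replicate 1 (0.0405), siNC replicate 1 (0.0473) and siNC replicate 3 (0.0228). Leaving out each library gave -0.0053 to 0.128 for SEMA4D and -0.0679 to 0.0473 for NEO1. The DESeq2 Wald test gave no adjusted p for NTNG2 and UNC5A, and a filter of 1 CPM in 3 libraries left out UNC5A. With limma on the score in log2 after adding 1 or 0.1, 5 members were called higher in place of 8, and PLXNA4 was not called, so 0 receptors were called higher in both (1 and 0 at an unadjusted p under 0.05). Leaving out each library gave 6 to 8 members called higher, 14 to 15 lower, and 0 to 1 receptors higher (0 without siNC replicate 3, with 1 at an unadjusted p under 0.05). The DESeq2 Wald test called 7 higher and 13 lower, and with upper-quartile factors, which move the median of all genes to -0.02, the counts were 7 and 15.

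Same-numbered libraries deviated together only weakly (r = 0.043, 0.023 and 0.026), although each was highest with its own number. The main fit did not take the numbers as pairs. With the replicate number as a block the counts stayed at 8 and 15, with 5234 genes called in place of 5159. Low counts limit UNC5A, NTNG2, NTN1 and SLIT3, and the 10 members with at most 15 reads in a library were not tested.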
